A study of Bos indicus with 9 samples.

Results

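The regions described here are the stretches of open chromatin that were called in liver and in neither of the other tissues of the same animals. They were chosen by measured values, as peaks of the deposited liver list on autosomes 1 to 29 that start at or above 1 Mb and share not even 1 bp with a peak of the hypothalamus list or of the muscle list. The rule left 632 of the 10465 autosomal liver peaks that start at or above 1 Mb, which is 6.04% (95% Wilson interval 5.60 to 6.51). The 3 lists hold 140923 peaks in all, 22291 of them from liver. Because the choice rests on the peak calls, the strength of these regions is given as a description with no test, and an unlisted place in hypothalamus or muscle is a place without a called peak, not one shown to be closed.

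The liver makes most proteins of blood plasma, clears drugs and metabolites, and stores and releases sugar and fat. In hepatocytes, the cells that carry out these tasks, the responsible genes are switched on through promoters and distant enhancers that are bound by transcription factors of the HNF and C/EBP families, and bound elements of this kind lose their nucleosomes and become accessible. Promoters of genes used by every cell are accessible in most tissues, while enhancers are accessible in few, so that regions open in 1 tissue are a common starting point for finding its regulatory elements. The liver also holds endothelial cells, bile duct cells, stellate cells, macrophages and lymphocytes, whose open regions enter the same list.

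ATAC-seq, in which the Tn5 transposase cuts accessible DNA, was carried out on frozen liver, hypothalamus and muscle of the same 3 unrelated, post-pubertal Brahman heifers (Bos indicus; animals 2047, 2054 and 2057), giving 3 libraries per tissue and 9 in all. The labels name no treatment and tell the groups apart by tissue. The number of nuclei per transposition reaction was optimised for each sample, so tissue and library preparation cannot be told apart. The authors combined the 3 heifers of a tissue into 1 consensus list, so no value for a single heifer enters this report, and all intervals cover counting error only. Tissue was processed in bulk, so a region open in few cells and a region weakly open in many cannot be told apart. Coordinates are those of the ARS-UCD1.2 assembly, counted from 1, and the lists do not give the number of reads behind a peak.

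Liver-only regions were weak, and shorter in the median than the pooled shared liver peaks. Each peak carries an area under the curve (AUC), the peak caller's summed significance above its threshold, and the −log10 p at its summit, combined over the heifers. The AUC of the 632 regions had a median of 273 and ran from 200.2, next to the lowest AUC that the list admits (200), up to 4022. The 9833 shared liver peaks had a median AUC of 549. The summit −log10 p had a median of 3.74 (range 2.81 to 6.26) in liver-only regions and 4.65 (2.85 to 30.12) in shared peaks, and the median length was 372.5 bp (112 to 3599) against 496 bp. A summit of at least 5 was reached by 12 liver-only regions (1.90%), beside 37.5% of all autosomal liver peaks, and an AUC of at least 400 by 97 of them (15.3%). The number of liver-only regions also depends on the other lists: with the lists cut to equal numbers of peaks, strongest by summit, it was 2772.

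The shared peaks were not of 1 kind. Liver peaks that overlapped a peak in both other tissues, 8729 in number, had a median summit −log10 p of 4.81 and a median AUC of 600. The 677 that overlapped only hypothalamus had medians of 3.84 and 280.3, and the 427 that overlapped only muscle had medians of 3.89 and 355.5. Peaks shared with hypothalamus alone were shorter than liver-only regions, with a median of 355 bp, while those shared with muscle alone had 457 bp and those in all tissues 510 bp. Liver-only regions thus had the lowest medians of the 4 classes in summit and AUC, next to those of peaks shared with 1 other tissue, and the long upper tail of the liver list belonged to peaks called in all tissues.

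**Figure D1:**
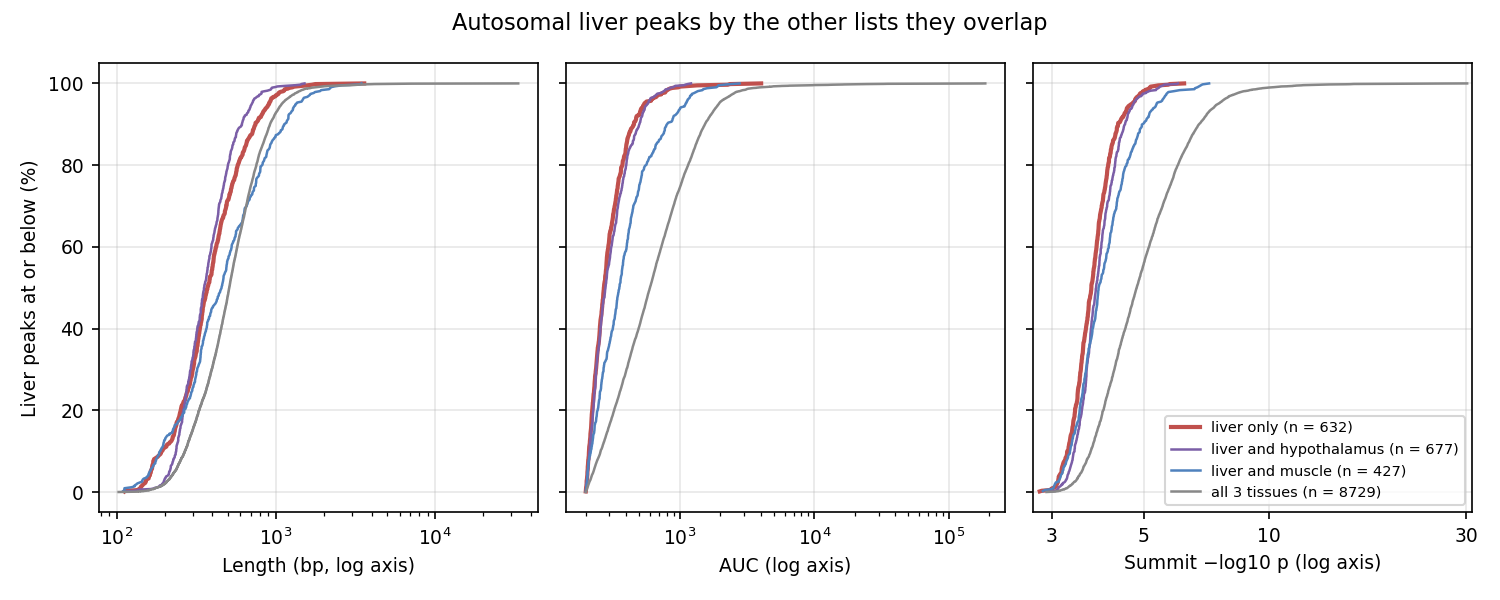
Cumulative share of autosomal liver peaks (y axis, percent) by length in bp, AUC and summit −log10 p (x axes, all log), with a line for each class of overlap: liver only (red), liver and hypothalamus (purple), liver and muscle (blue) and all 3 tissues (grey). The red and purple lines run close together in AUC and summit, and the grey line lies to their right, with a median summit of 4.81 against 3.74 for liver-only regions.

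The strongest liver-only region lay at the gene of the fibrinogen gamma chain, FGG, a subunit of the protein that forms the blood clot. This region, chr17:2848814-2850251, had a summit −log10 p of 6.26 and an AUC of 2352, which ranked 1459th and 270th among the 10465 liver peaks. It was 1438 bp long and lay within 10 kb of FGG. No hypothalamus peak came nearer than 19695 bp and no muscle peak nearer than 24230 bp.

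It was 1 of 8 liver-only regions between 2840475 and 2894737 on chromosome 17. The others near FGG were chr17:2840475-2840888 (summit 3.69), chr17:2843706-2844297 (3.74) and chr17:2845184-2846116, in an intron of FGG (3.27). Further along lay chr17:2863059-2863475 (3.10), chr17:2866831-2867482 (3.43), chr17:2867595-2868733 (4.27) and chr17:2893543-2894737, which with a summit of 5.42 and an AUC of 1346 had the fourth highest summit among liver-only regions. These 4 had no gene name here. The 2 strongest of the group exceeded the median summit of shared liver peaks, 4.65, and the other 6 stayed below it. In the RefSeq annotation of another cattle assembly (NIAB-ARS_B.indTharparkar_mat_pri_1.0), FGG is followed by FGA and FGB, which encode the other fibrinogen chains, and then by PLRG1. Within 50 kb of the FGG gene model, 8 of the 10 liver peaks were liver-only, and the hypothalamus list had 2 peaks and the muscle list 1. Over the 1 Mb window from 2 Mb, liver-only regions made up 8 of 12 liver peaks (66.7%, 39.1 to 86.2).

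**Figure D2:**
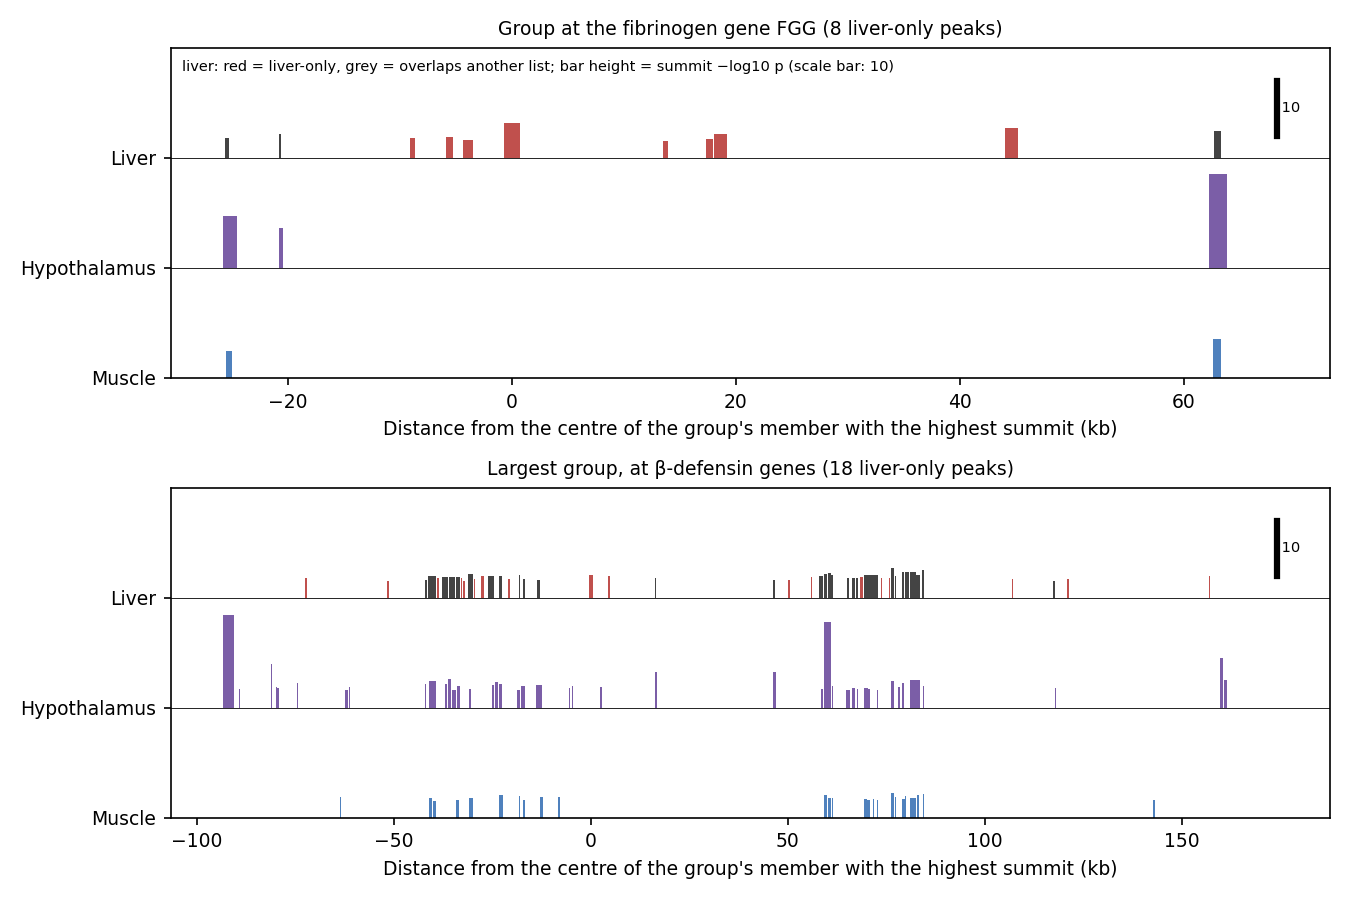
Peaks of the 3 lists around the group of liver-only regions at FGG (top) and around the largest group, at β-defensin genes (bottom), by distance in kb from the centre of the liver-only region with the highest summit (x axis), with bar height giving the summit −log10 p and bar width the peak. At FGG the 8 liver-only regions (red) fill a stretch with no bar in hypothalamus or muscle, while at the defensin genes the 18 liver-only regions lie between many peaks of the other tissues.

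Beside the 2 regions of the group at FGG, the 10 highest summits were matched to no gene of the liver lists. They were chr25:37940782-37941026 (summit 5.77), nearest to CCZ1, a factor of endosome traffic, and chr11:6753860-6754029 (5.73), in an intron of IL1R2, the decoy receptor for interleukin 1. A region without a gene name here followed, chr15:52322122-52322953 (5.31, AUC 978). Summits of 5.10 to 5.19 belonged to chr5:28218891-28219084, nearest to the sodium channel gene SCN8A, chr2:14043814-14043977, nearest to the phosphodiesterase gene PDE1A, and chr21:21790211-21791016, with no gene name. The same range held chr8:113074521-113074659, nearest to SH3YL1, and chr1:88326801-88327659 (AUC 1143), annotated to an intron of PLCXD1 with a KCNMB2 gene model within 10 kb. In the other cattle assembly PLCXD1 lies beside GTPBP6, and KCNMB2 beside KCNMB3 and TBL1XR1. Which gene this region belongs to is therefore uncertain. Of these 10 regions, 5 were at most 245 bp long, and all but the 2 of the group at FGG and the one on chromosome 1 had an AUC between 291.5 and 978. The region in IL1R2 lay 216 bp from the nearest hypothalamus peak and 216 bp from the nearest muscle peak, so its separation from the other lists was small.

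The largest AUC, 4022, belonged to the longest region, chr18:50134877-50138475, which spanned 3599 bp with a summit of 4.84 and ranked 84th in AUC among all liver peaks. The nearest hypothalamus and muscle peaks lay 65564 and 66591 bp away, and no gene name was matched to it. After the fibrinogen region, the next largest AUC, 2273, was that of chr7:68206528-68208102, within 10 kb of HAVCR1, which encodes the cell surface receptor TIM-1. Next in length were chr6:89007399-89009171 (1773 bp, AUC 877.7), nearest to the neutrophil chemokine gene CXCL3, and chr21:59352681-59354373 (1693 bp, AUC 992), with no gene name.

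A liver-only region was matched to 14 listed liver genes, of which 7 encode plasma proteins, the list with the most gene models at hand. A gene name from the authors' annotation could be set beside 393 of the 632 regions (62.2%). The annotation of the remaining regions was not analysed here, so a gene without a matched region is not one shown to lack it. In a list of 53 plasma protein and clotting genes, 12 had a gene model in the annotation used, and 7 of these had at least 1 of 11 liver-only regions inside, within 10 kb or as nearest gene. Over all 1969 gene models at hand the share with such a region was 12.8%. Beyond chromosomes 1 to 4 a model can be at hand because a liver-only region lies beside it, so these counts are not read as enrichment. AMBP, which encodes α1-microglobulin and the inhibitor bikunin, had chr8:103308443-103308934 (summit 3.30) and chr8:103312608-103313300 (3.66). These were the only liver peaks within 50 kb, where hypothalamus had 3 peaks (summits up to 10.22) and muscle 1 (3.55). ITIH1 and ITIH3 encode heavy chains that are joined to bikunin in the inter-α-trypsin inhibitor. A region lay in the promoter of ITIH1, chr22:48114305-48114707 (3.75), and another just downstream of ITIH3, chr22:48075679-48076337 (3.13), 369 bp from a hypothalamus peak. Within 50 kb, hypothalamus had 4 peaks at ITIH1 (up to 17.13) and 6 at ITIH3 (up to 14.92). Muscle had 4 (up to 7.65) and 5 (up to 7.19).

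Clotting genes and an apolipoprotein gene followed. CPB2, a carboxypeptidase that slows the breakdown of clots, had an intronic region, chr12:16182856-16183299, with a summit of 4.27 and an AUC of 506, the highest values in this list after those at fibrinogen. It was the only liver peak within 50 kb of CPB2, where hypothalamus had 4 peaks (up to 16.75) and muscle 2 (up to 5.58). PROC, the anticoagulant protein C, was the nearest gene to chr2:5087567-5088212 (3.24), with 5 hypothalamus peaks (up to 16.73) and 3 muscle peaks (up to 9.15) within 50 kb of the gene. APOA2, an apolipoprotein of high density lipoprotein, had chr3:8281843-8282118 (3.57) in its promoter. That promoter region lay 814 bp from a hypothalamus peak and 911 bp from a muscle peak. Within 50 kb of APOA2, hypothalamus had 11 peaks (up to 17.35) and muscle 6 (up to 7.99).

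Metabolic genes were represented by 4 of the 9 that had a gene model, out of a list of 89. AGXT, which removes glyoxylate in peroxisomes, had chr3:120153575-120153959 (summit 3.84) in its promoter. It was the only liver peak within 50 kb of AGXT, where hypothalamus had 8 peaks (up to 15.57) and muscle none. IGFBP1, an insulin-regulated binding protein of insulin-like growth factors, had chr4:76136139-76136608 (3.64) in its promoter. CYP4A11, a fatty acid ω-hydroxylase, was the nearest gene to chr3:99236447-99236685 (3.80, AUC 202.5). Within 50 kb of IGFBP1 and of CYP4A11 these were the only peaks of any of the 3 lists. KYNU, kynureninase of tryptophan breakdown, was the nearest gene to chr2:55496016-55496127 (5.05), the shortest liver-only region at 112 bp, although it lay more than 50 kb from the gene.

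Of 36 liver transcription factor genes, 6 had a gene model and 2 had a liver-only region. CEBPB, a factor of the acute phase response, had chr13:78203722-78204120 (summit 3.46) in its promoter, 430 bp from a hypothalamus peak and 777 bp from a muscle peak. Within 50 kb of CEBPB, hypothalamus had 12 peaks (up to 18.64) and muscle 10 (up to 9.2). MLXIPL, the carbohydrate response factor ChREBP, had chr25:33618604-33619035 (3.41) in an intron, with 15 hypothalamus peaks (up to 21.65) and 8 muscle peaks (up to 10.11) within 50 kb. Among 30 genes of liver immune cells, 3 had a gene model, and LCK, a kinase of T cell receptor signalling, had chr2:121284454-121284683 (3.83) in its promoter, with 15 hypothalamus peaks (up to 22.37) and 7 muscle peaks (up to 8.0) within 50 kb. No liver-only region was matched to the 24 genes of endothelial, stellate and bile duct cells, for which 0 gene models were at hand. None was matched to the 35 skeletal muscle genes or the 40 nervous system genes, for which 4 and 5 gene models were at hand. Muscle and nervous system genes outside these lists are not covered by that count. Apart from FGG, CPB2 and the distant KYNU region, all of these regions had a summit below 4. Stronger shared liver peaks lay within 50 kb of several of these genes. Their highest summits were 6.0 at APOA2, 6.45 at CEBPB, 5.91 at MLXIPL, 5.96 at LCK, 5.18 at ITIH1 and ITIH3, and 4.92 at PROC. At FGG the shared liver peaks reached 4.38, below the 6.26 of the strongest liver-only region.

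The annotated part of chromosomes 1 to 4 allowed the same count in liver peaks of every kind. Within 10 kb of a listed hepatocyte gene (plasma protein, metabolism or transcription factor) lay 3 of 92 liver-only regions (3.26%, 1.12 to 9.15), those at APOA2, AGXT and IGFBP1. Of the 1638 shared liver peaks there, 4 did so (0.244%, 0.0950 to 0.626), and of all 1730 the share was 0.405%. The counts are only 3 and 4 and the intervals cover counting error alone, so nothing is read from this difference. With a peak of another tissue within 1 kb counted as shared, 2 liver-only regions remained within 10 kb of such a gene (2.78%, 0.765 to 9.57). Within 100 kb the shares were 5.43% (2.34 to 12.1) and 1.47% (0.987 to 2.17).

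Liver-only regions lay away from promoters. On the same part, 16 of 92 were in a promoter, defined as within 3 kb of a transcription start site (17.4%, 11 to 26.4), where 987 of 1638 shared peaks were (60.3%, 57.9 to 62.6). The share over all liver peaks of the part was 58.0%. Distal intergenic places held 57 liver-only regions (62.0%, 51.7 to 71.2) and 32.1% of shared peaks (29.8 to 34.3), and introns held 11 (12.0%, 6.81 to 20.1) and 5.43% (4.44 to 6.64). Exons and stretches just downstream of genes held 4 liver-only regions each.

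The promoter share is also given by AUC, since liver-only regions were weaker. With an AUC under 400, 11 of 76 liver-only regions (14.5%, 8.28 to 24.1) and 273 of 524 shared peaks (52.1%, 47.8 to 56.3) were in a promoter. With an AUC of 400 or more, the counts were 5 of 16 (31.2%, 14.2 to 55.6) and 714 of 1114 (64.1%, 61.2 to 66.9). The part of peak strength in the promoter share was not tested. Regions called in 1 tissue only were also rarely in promoters elsewhere: on the annotated chromosomes the share was 6.38% (5.24 to 7.73) of 1490 hypothalamus-only peaks and 4.77% (3.52 to 6.43) of 839 muscle-only peaks. These parts cover chromosome 1 for hypothalamus and chromosomes 1 to 2 for muscle, fewer than for liver, so the tissues are not compared here. For liver-specific peaks over all autosomes and X, the paper reports a promoter share lower than on this part. That share is close to those of its hypothalamus-specific and muscle-specific peaks.

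**Figure D3:**
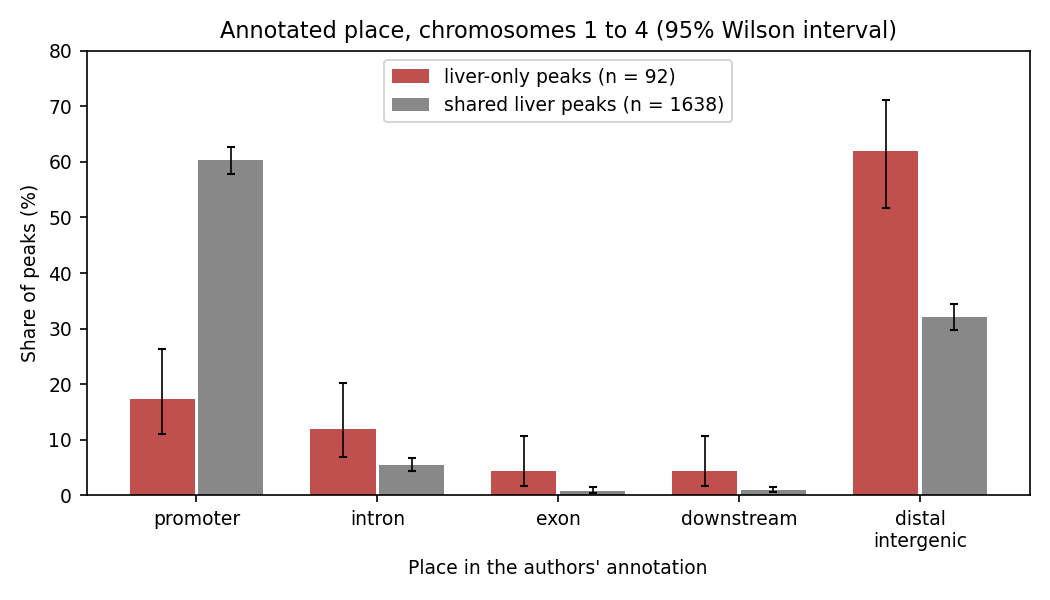
Share of peaks (y axis, percent) by place in the authors' annotation (x axis) for 92 liver-only regions (red) and 1638 shared liver peaks (grey) on chromosomes 1 to 4, with 95% Wilson intervals as error bars. Promoters hold 17.4% of liver-only regions and 60.3% of shared peaks, and distal intergenic places 62.0% and 32.1%.

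The regions were unevenly spread over the autosomes. On chromosome 27, 44 of 195 liver peaks were liver-only (22.6%, 17.3 to 28.9), followed by chromosome 14 with 23 of 224 (10.3%, 6.94 to 14.9). Chromosome 13 had the smallest share, 10 of 341 (2.93%, 1.60 to 5.31), and chromosome 18 the largest number, 52 of 650 (8.0%). On chromosome 27 all but 2 of the 44 lay in 2 windows of 1 Mb, and without the densest windows of all autosomes its share was 2.41% (0.663 to 8.37).

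**Figure D4:**
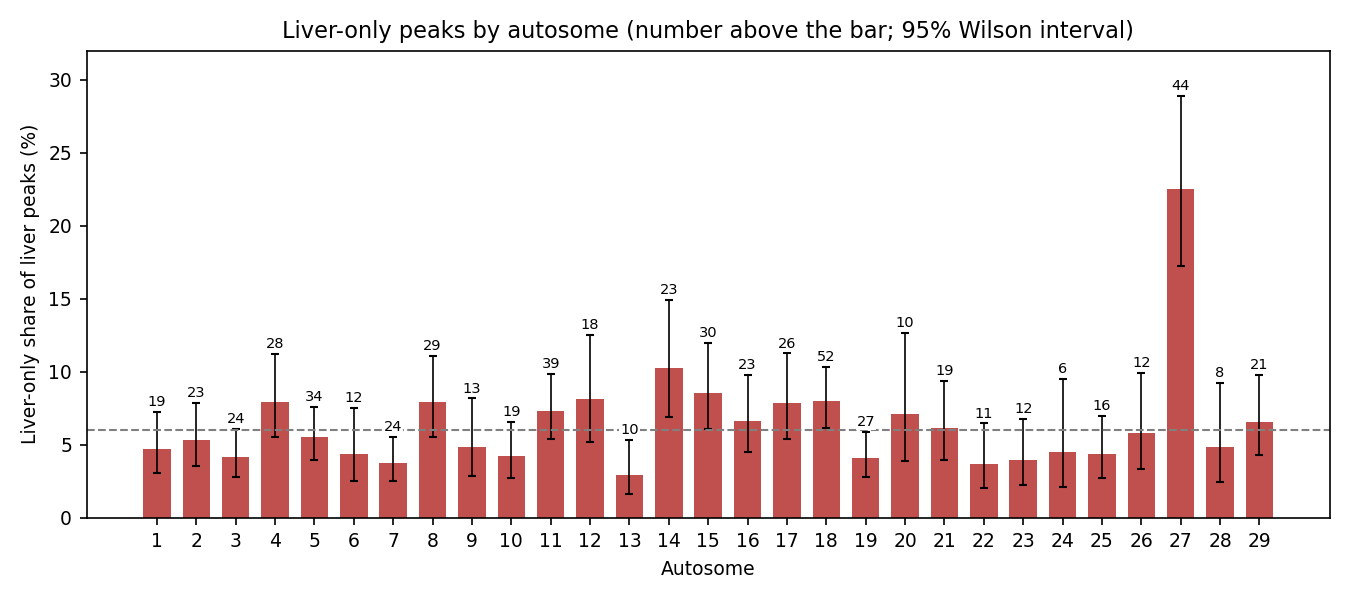
Share of liver peaks that were liver-only (y axis, percent) on each autosome (x axis), with 95% Wilson intervals as error bars, the number of liver-only regions above each bar and the share over all autosomes, 6.04%, as a dashed line. Chromosome 27 stands at 22.6%, and every other autosome lies between 2.93% and 10.3%.

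Most liver-only regions stood alone, but a few places held many. Joined where they lay within 50 kb of each other, they formed 440 groups, of which 368 were single regions (58.2% of all) and 14 had 5 or more members, 123 regions together. Of the 1774 windows of 1 Mb with a liver peak, 352 held a liver-only region and 245 held exactly 1. The 12 windows with 8 or more held 148 regions (23.4%), and in these windows 33.7% of 439 liver peaks were liver-only, against 4.83% of 10026 elsewhere. Since the windows were chosen by their number of liver-only regions, a higher share inside them follows from the choice.

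The densest windows held genes of the β-defensins, short cationic peptides that kill microbes at epithelial surfaces and exist in cattle as many similar copies. The window from 6 Mb on chromosome 27 had 28 liver-only regions among 86 liver peaks, beside 79 hypothalamus and 61 muscle peaks. Their nearest genes were DEFB10 for 10 regions, DEFB13 for 8, DEFB3 for 5 and DEFB1 for 3. Their summits ran from 3.09 to 4.89 with a median of 3.54, below the median of 3.74 over all liver-only regions. The highest, chr27:6279198-6279834 (4.89, AUC 814), was nearest to LOC783012, and the next was chr27:6293034-6293663 (4.20), nearest to DEFB13. Promoter regions were found at DEFB13, chr27:6329186-6330395 (3.39), and at DEFB10, chr27:6594184-6595225 (4.15) and chr27:6599016-6599419 (3.93).

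The adjoining window from 7 Mb had 14 liver-only regions among 26 liver peaks (53.8%, 35.5 to 71.2). The enteric β-defensin gene EBD was the named gene for 9 of them and DEFB5 for 2. Their summits lay between 3.11 and 3.81, and their median length was 717 bp, longer than the 372.5 bp over all liver-only regions. Intronic regions of EBD were chr27:7168242-7169145 (3.68), chr27:7169494-7170211 (3.66), chr27:7172186-7172731 (3.71) and chr27:7172892-7173161 (3.81).

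Another place with 14 liver-only regions was the window from 13 Mb on chromosome 14, where 28 liver peaks had been called (50.0%, 32.6 to 67.4). All named regions there were distal intergenic, 6 nearest to the microRNA gene MIR2310 and 6 nearest to LRATD2. Their summits were low, 2.84 to 3.88, and 7 of the 14 lay less than 1 kb from a peak of another tissue. The lowest was chr14:13600915-13601828 (2.84) and the highest chr14:13831187-13832041 (3.88).

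Of the 12 windows with 8 or more regions, 5 held regions matched to immune gene families, the defensin windows included. The share of all windows that hold such a family is not given here. The families were picked from names beside liver-only regions, so nothing is read from this count. On chromosome 5, 11 regions were matched to WC1 or WC1.3, scavenger receptor genes of γδ T cells, with summits of 3.05 to 4.55, and the window from 102 Mb had 12 liver-only regions among 23 liver peaks, beside 4 hypothalamus and 13 muscle peaks. The highest of these was chr5:102772623-102773115 (4.55, AUC 531), in an exon of WC1. On chromosome 18, 10 regions were matched to KIR3DL2, KIR3DS1 or NCR1, receptors of natural killer cells (3.15 to 4.18), and their window from 62 Mb had 12 liver-only regions among 37 liver peaks. On chromosome 8, 8 regions were matched to the type I interferon genes IFNB3 and IFNAA (3.17 to 4.49), 3 of them in the promoter of IFNB3, and the window held 8 liver-only regions among 23 liver peaks, with a median region length of 211 bp. The windows from 57 Mb on chromosome 18 (13 regions, among them 9 at LOC100336984), from 72 Mb on chromosome 12 (12, among them 10 nearest to CLDN10), from 105 Mb on chromosome 4 (9, among them 8 at LOC780933), from 84 Mb on chromosome 15 (9, among them 8 at LOC788572) and from 50 Mb on chromosome 18 (9, among them 4 nearest to DMAC2) held no listed gene.

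Grouped by name after their values had been seen, 73 regions (11.5%) were matched to 6 families: β-defensins (38), WC1 receptors, killer cell receptors, type I interferons, ligands related to the class I histocompatibility molecules (4) and the Fc receptor-like gene FCRL1 (2). By gene models within 10 kb alone, 48 liver-only regions (7.59%) and 68 shared liver peaks (0.692%) were matched, or 1.11% of all liver peaks. The same distance was used for every liver peak, but the models were not gathered alike for both classes. Beyond chromosomes 1 to 4 a model can be at hand because a liver-only region lies beside it. The families were also picked from the names found beside liver-only regions, so nothing is read from this difference. Their median summit was 3.61 and their highest 4.55, against a median of 3.76 for the other 559 regions, and 0 of the 73 reached a summit of 5. A peak of another tissue lay less than 1 kb from 30 of them (41.1%) and from 120 of the others (21.5%). Several of these families have near-identical copies, and a read with several alignments was counted by the peak caller as a fraction at each place, so which copy a peak belongs to is uncertain. The part of read sharing in these groups was not tested.

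Some genes outside the lists, named after their values had been seen, also have known roles in liver. They were picked by hand from the 253 gene models with a liver-only region, so nothing is read from their number. FTCD, an enzyme of histidine and folate metabolism, had 3 regions, with summits of 3.07 downstream of the gene and of 3.64 and 3.99 in its promoter, chr1:145862333-145862691 and chr1:145863475-145863981. SLC51A, a subunit of a transporter that exports bile acids, had chr1:70808005-70808311 (4.64) in its promoter, the highest summit of these. SARDH, which breaks down sarcosine in mitochondria, had 2, of which chr11:104583456-104583947 (3.99) lay in the promoter. KYAT1, an aminotransferase of kynurenine, had 3 intronic regions between 99350977 and 99360198 on chromosome 11 (3.53 to 3.92). IGFBP4, which binds insulin-like growth factors, had 3 regions with summits of 3.77 to 4.02 on chromosome 19. All of these were weaker than the strongest region at FGG. Other unlisted genes matched to a liver-only region are known from the nervous system, such as RBFOX1 (summit 4.98), GRM3 (3.86), NOVA1 (3.8) and SLC6A11 (3.7).

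Many liver-only regions lay close to a region open in another tissue. The nearest hypothalamus or muscle peak was a median of 3614 bp away, with the middle of the distribution from 1058 to 11050 bp (lower and upper quartile) and a maximum of 949719 bp. It lay within 500 bp of 93 regions (14.7%), within 1 kb of 150 (23.7%) and within 5 kb of 367 (58.1%). The nearest peak came from hypothalamus for 402 regions, from muscle for 226 and was equally far in both for 4, and the hypothalamus list is the longest of the 3. Had a peak of another tissue within 5 kb counted as shared, 265 of the 632 regions would have stayed. The nearest shared liver peak was farther, with a median of 17570 bp. There are only 9833 shared liver peaks, beside 68177 hypothalamus and 28554 muscle peaks on autosomes from 1 Mb. List length and tissue cannot be told apart in this difference either.

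The same rule applied to the other lists left 51518 of 68177 hypothalamus peaks (75.6%) and 10681 of 28554 muscle peaks (37.4%). Their median gaps to the other lists were 24709 bp and 7659 bp, and 5.34% and 11.8% of them lay less than 1 kb from a peak of another tissue, against 23.7% in liver. Liver peaks are set against the longest pair of lists and hypothalamus peaks against the shortest, so list length and tissue cannot be told apart in these gaps. The difference in strength from shared peaks had the same sign in all 3 tissues, with median summits of 5.35 against 12.16 in hypothalamus and 4.55 against 5.76 in muscle.

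**Figure D5:**
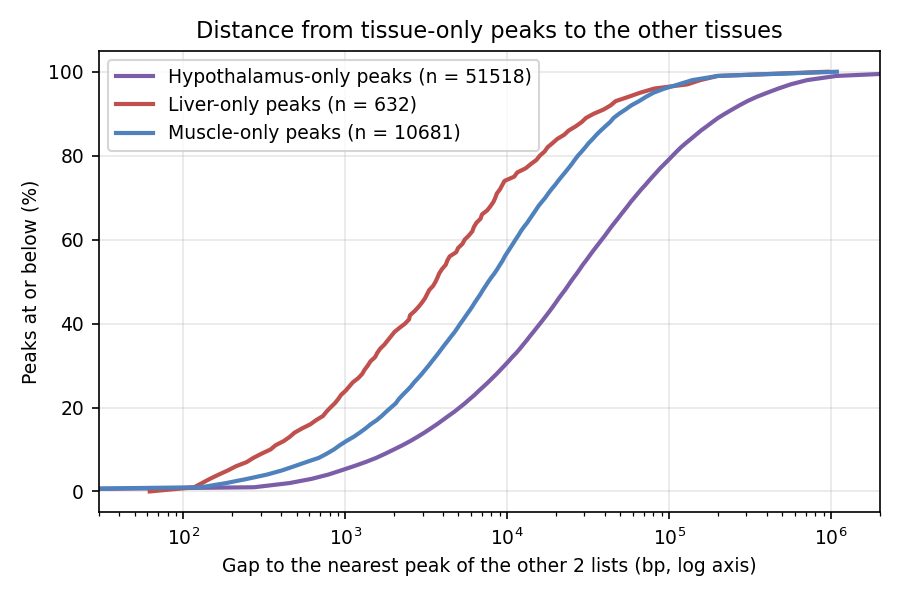
Cumulative share of tissue-only peaks (y axis, percent) by the gap in bp to the nearest peak of the other 2 lists (x axis, log), for 632 liver-only regions (red), 51518 hypothalamus-only peaks (purple) and 10681 muscle-only peaks (blue). The red line lies to the left, with a median of 3614 bp against 7659 bp in muscle and 24709 bp in hypothalamus.

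At the limits of the rule, the region nearest to another list was chr10:25161567-25162082, which lay 62 bp from a muscle peak and itself had a summit of 3.57, followed by chr18:57284085-57284407 at 72 bp (4.71). The liver peak with the smallest overlap that was left out, chr2:4868450-4868793, shared 7 bp in all with the other lists and had a summit of 3.40. By position, the region starting closest to 1 Mb was chr16:1090329-1091039 (3.56), and the closest one left out was chr21:732512-732712 (4.11).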

How the data were processed

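The deposited ATAC-seq data of 3 Brahman heifers comprise a consensus peak list each for liver, hypothalamus and muscle. Reads had been mapped by the authors with HISAT2 (ARS-UCD1.2), which kept several alignments per read. Genrich 0.6.1 then gave the peaks at a p of 0.01, with duplicates and mitochondrial reads removed and heifers combined by Fisher's method. The deposited signal is the AUC, the deposited −log10 p is that of the summit, and the deposited score, which follows AUC per length, was not used. None is scaled between tissues, and the lists hold no read counts, so the depth behind a single peak is unknown (library depths were not used here).

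Overlap of 1 bp counted as shared. Scripts ran under python 3.11.15 with pandas 2.3.3, numpy 2.4.6, scipy 1.17.1 and matplotlib 3.10.9. On simulated data the code recovered 7 of 7 kinds of planted check over 6000 loci, and bedtools 2.31.1 returned the same 632 regions. Windows of 1 Mb were counted from the chromosome start. Gene names and places are the authors' peak annotation, joined by peak name and position. The parts used here were chromosomes 1 to 4 (1730 liver peaks, 92 of them liver-only), and, for 270 further regions, the authors' list of peaks without a taurine counterpart. Another 31 regions were named from gene models within 10 kb, and distances between genes and regions used the same models (1969 symbols).

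Named regions are the 10 highest summits, the 5 largest AUC, the 3 longest, those at a gene of the liver lists (at most 40) and those of the 3 densest windows. In the last, values of selected regions are printed. Others were named after their values were seen, and 1 gene of the lists is not reported here. The members, lists and rules were chosen with earlier results of these data known. Without values per heifer no test was made. Sequence content and motifs were not analysed here.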

Additional observations from a re-analysis of the deposited data

Results flagged for a closer look

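Some liver peaks outside the rule were also called in liver only, and they enter no comparison above. On autosomes before 1 Mb, 156 of 894 liver peaks overlapped no peak of another tissue (17.4%), with a median summit −log10 p of 3.83. On the X chromosome 150 of 704 did so (21.3%, median summit 3.60), and on unplaced sequences 1275 of 10228 (12.5%, median summit 4.22). All 3 shares were above the 6.04% of the autosomes from 1 Mb, and these data hold no control samples.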

How the results depend on the processing

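No paired analysis was possible because each list combines the heifers of a tissue, and leaving out a heifer could not be run for the same reason. Alternatives for GC content and motifs were not run. Of 632 regions, 265 remained when a peak of another tissue within 5 kb counted as shared, 12 with a liver summit of at least 5 and 97 with an AUC of at least 400. The number rose to 1218 when only hypothalamus and muscle peaks with a summit of at least 5 counted, and to 2772 with equal numbers of peaks per list. The other alternatives gave 482 to 788. The share on chromosome 27 (22.6%) moved to 15.9%, 13.8% and 2.56% when peaks within 500 bp, 1 kb and 5 kb counted as shared, to 0% and 8.26% with the summit and AUC limits on liver, to 53.3% and 61.5% with the summit limit on the other lists and equal numbers, and to 2.41% without the windows of 8 or more regions, which was chosen after seeing the data. The share in promoters (17.4%) was 30.4% within 10 kb of a start site, 31.2% with an AUC of at least 400 and 0% (0 of 3 regions) with a summit of at least 5. The causes were not tested. The lower summit of liver-only regions kept its direction in 10 of 10 alternatives, and the median gap (3614 bp) was 3845 bp from the summit and 4370 bp without the dense windows.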
